A study of Homo sapiens with 6 samples.

Results

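The levels of 10 receptor tyrosine kinase genes were compared between parental and onvansertib-resistant H526 cells. The genes were *KIT*, *IGF1R*, *INSR*, *FGFR1*, *EGFR*, *ERBB2*, *ERBB3*, *MET*, *AXL* and *RET*, taken by name as 10 of the 62710 genes analysed. H526 is a human small cell lung cancer (SCLC) cell line, and onvansertib is a selective inhibitor of polo-like kinase 1 (PLK1). The resistant cells were grown in onvansertib that was raised from 10 to 75 nM, the parental cells are the same line without the drug, and 3 libraries were sequenced per group, numbered 1 to 3 and 7 to 9. The RNA was harvested from both lines at separate times, so the p-values measure the spread between harvests of 1 selected line, and the labels do not state whether that line is a clone. The passage of the parental cells is not stated, so the drug and the time in culture cannot be told apart.

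Receptor tyrosine kinases sit in the cell membrane, bind growth factors outside the cell, pair up and phosphorylate each other on tyrosine. Adaptor proteins then dock on the phosphorylated tails and pass the signal to the RAS-MAPK and PI3K-AKT pathways, which drive growth and survival. *KIT* is the receptor of stem cell factor and has long been known in SCLC, and *IGF1R*, the receptor of insulin-like growth factors, is a known dependency of the tuft cell-like subtype of SCLC that is defined by the transcription factor *POU2F3*.

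The values are gene counts after normalization with DESeq2 by the study's authors, called normalized values here, and every mean is given ± SD over n = 3 libraries. From the value that 1 read takes, the libraries held an estimated 25667878 to 28606159 reads in parental and 22368929 to 23255052 reads in resistant cells. A gene was taken as detected above 3 reads, a normalized value of 2.66 to 2.94 (parental) or 3.11 to 3.22 (resistant), a limit that covers only the error of counting. The depth and this limit are approximate, since only 33.8% to 50.6% of low values lay close to a whole number of reads. *POU2F3*, the subtype factor, stood at 25809 ± 1178 in parental and 27273 ± 535 in resistant cells and was not called. Other tuft cell markers moved in both directions: of 6 with *POU2F3*, all tested, 3 were higher and 2 lower. That is 83.3% called, against 37.7% of all genes tested. Among those called were *TRPM5* (log2FC 1.77) and *AVIL* (log2FC -0.80), and the subtype factor *YAP1* was higher (log2FC 1.17). *AVIL* lies on chromosome 12 (57797376 to 57818734) between *ERBB3* and *FRS2*, whose neighbouring genes had median log2FC values of -0.57 and -0.51. The 4 epithelial markers summed to between 45740 and 50720 in parental and between 41780 and 46710 in resistant libraries. Of these markers 2 were called lower, *EPCAM* (log2FC -0.23) and *KRT8* (log2FC -0.22), which is 50% against 19.8% of all genes tested. The leukocyte markers *PTPRC*, *CD3E* and *ITGAM* were under the limit of 3 reads in each library.

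The 10 receptors fell into a dominant gene, a middle group and a group at or near 0. The order of the expressed genes among the 10 was the same in both lines. Levels of different genes were compared as normalized value per kb of the longest transcript, and isoforms were not told apart. *KIT* led with 2283 ± 387 per kb in parental cells, 6.77 times the level of the next gene of the 10, *ERBB3*. This ranking and the shares below hold only among the 10 chosen genes. Outside them, *EPHB3* had normalized values of 7586 ± 917 in parental and 4938 ± 365 in resistant cells, with a longest transcript of 4234 bases. The values of *ERBB3* were 2111 ± 228 and 1915 ± 94.5, with a longest transcript of 6264 bases. Then came *ERBB3* at 337 ± 36.4, *MET* at 273 ± 34.9 and *IGF1R* at 235 ± 28.0 per kb, and the ranges of *ERBB3* and *MET* and those of *MET* and *IGF1R* overlapped between parental libraries. *INSR* at 114 ± 7.74, *ERBB2* at 67.5 ± 16.0 and *FGFR1* at 36.9 ± 6.15 per kb followed without overlap. In resistant cells the order was the same, with *KIT* at 1480 ± 17.2 per kb and 4.84 times the level of *ERBB3*, and the ranges of *MET* and *IGF1R* and those of *ERBB2* and *FGFR1* overlapped. *RET*, *EGFR* and *AXL* were at or near 0 in both lines.

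**Figure D1:**
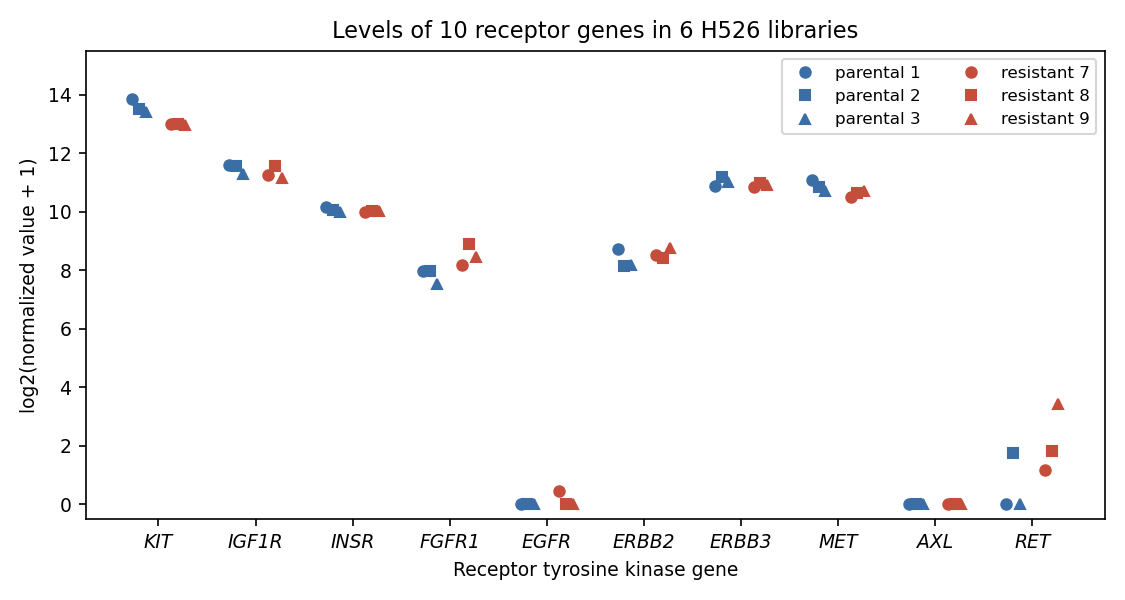
Levels of the 10 receptor genes, as log2(normalized value + 1), in each of the 3 parental (blue) and 3 resistant (red) libraries. *KIT* lies highest in all libraries, *EGFR* and *AXL* lie at or near 0, and the groups separate for *KIT* and *FGFR1* among the expressed genes.

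Of the 10 genes, 7 reached a mean normalized value of 10 over the 6 libraries and were tested, with limma on log2(value + 1) over all 16347 genes that passed this filter. At a Benjamini-Hochberg adjusted p under 0.05, 1 receptor was lower in resistant cells, *KIT*, and 1 was higher, *FGFR1*. That is 28.6% of the 7, against 37.7% of all genes tested (17.8% higher and 19.8% lower). The groups did not overlap for the same 2 genes, while over all genes tested they did not overlap for 49.9%. The log2 fold change (log2FC) is that of resistant over parental cells, on the log2(value + 1) scale, which understates the change of low genes. For a single value, the smallest p that an exact permutation test of this design allows is 0.10.

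*KIT* (ENSG00000157404, chromosome 4 of GRCh38, 54657267 to 54740783), the stem cell factor receptor, had normalized values of 14941, 11632 and 10983 in parental libraries 1, 2 and 3 and of 8215, 8103 and 8028 in resistant libraries 7, 8 and 9. The resistant libraries lay close together and below each parental library, and parental library 1 stood above the others. The mean fell from 12519 ± 2123 to 8115 ± 94.4 (log2FC -0.61, SE 0.10, 95% interval -0.84 to -0.39, limma adjusted p = 0.000975). The fall was larger than the spread between libraries of either group. Without parental library 1 the log2FC was -0.48 (limma adjusted p = 0.000471), the smallest fall in any alternative, and the largest adjusted p, 0.0194, came from limma without the intensity trend. Among the 50 tested genes nearest to *KIT* on the chromosome the median log2FC was -0.01, with 10 called lower and 6 higher. In bulk RNA, fewer cells that express a gene and less RNA per cell cannot be told apart. *KITLG*, which encodes stem cell factor, was expressed in both lines, at 1901 ± 265 in parental and 1576 ± 27.0 in resistant cells, with a log2FC of -0.26 (95% interval -0.48 to -0.05) that did not pass the threshold (limma adjusted p = 0.0561). It lies on chromosome 12 (88492793 to 88580851) near *DUSP6*, whose 50 neighbouring genes had a median log2FC of -0.42.

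The genes whose centred log2 profile over the 6 libraries lay nearest to that of *KIT*, among 11893 others with a mean of at least 100, were *ACTR6*, *MLEC* and *ZNF480*, at Euclidean distances of 0.130, 0.151 and 0.155. *MLEC*, a lectin of the endoplasmic reticulum, went from 7996 ± 836 to 5123 ± 51.9, a log2FC of -0.64 beside the -0.61 of *KIT*. The 6 libraries form 2 groups, so genes that fell by about as much are near in this measure.

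*KIT* held 70.9%, 65.8% and 67.3% of the summed level per kb of the 10 receptors in parental libraries 1, 2 and 3, and 61.7%, 58.2% and 59.7% in resistant libraries 7, 8 and 9. The share was lower in each resistant library than in each parental one, with means of 68.0% ± 2.63 and 59.9% ± 1.73, and the difference of -8.13 percentage points has an exact two-sided permutation p of 0.10, the smallest the design allows. The share of *INSR* was 3.43% ± 0.217 in parental and 4.42% ± 0.0746 in resistant cells, and that of *ERBB2* 2.0% ± 0.225 and 3.1% ± 0.422, while the values of neither gene were called. The summed level per kb was 3347 ± 445 in parental and 2472 ± 57.5 in resistant cells (exact two-sided permutation p = 0.10). A share is a ratio within a library, so a single scaling factor per library cancels out, while factors that differ between genes would not. A fall of the largest member also raises the shares of the others.

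**Figure D2:**
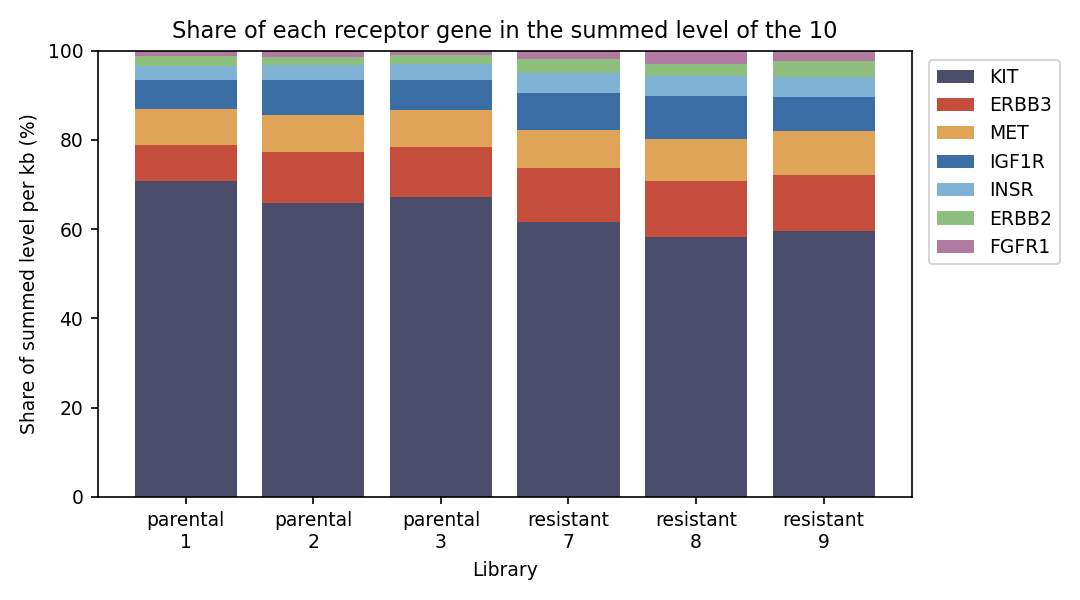
Share of each receptor gene in the summed normalized value per kb of the 10 genes, in percent, as stacked bars for each library. *EGFR*, *AXL* and *RET* are too low to be seen and are not drawn. The *KIT* share lies between 65.8% and 70.9% in parental and between 58.2% and 61.7% in resistant libraries.

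*FGFR1* (ENSG00000077782, chromosome 8, 38400215 to 38468834), a receptor of fibroblast growth factors, had normalized values of 252, 249.7 and 185 in parental libraries 1, 2 and 3 and of 290.0, 472 and 350.0 in resistant libraries 7, 8 and 9. All resistant libraries lay above all parental ones, and resistant library 8 was the highest. The mean rose from 229 ± 38.2 to 371 ± 93.0 (log2FC 0.68, SE 0.19, 95% interval 0.25 to 1.11, limma adjusted p = 0.0199). The call rested on single libraries and on the variance model: the adjusted p was 0.0771 without parental library 3, where the log2 fold change was 0.53, 0.0795 without resistant library 8, where it was 0.49, and 0.0648 by limma without the intensity trend. The median log2FC of its 50 nearest tested genes was 0.01.

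The other FGF receptors were looked at beside *FGFR1* after their values had been seen. *FGFR3* rose from 352 ± 58.8 to 772 ± 98.6 (log2FC 1.14, SE 0.14, limma adjusted p = 0.000174), and this call held in all 14 alternatives. *FGFR2*, at 273 ± 56.0 and 318 ± 46.6, and *FGFR4*, at 118 ± 33.5 and 141 ± 44.6, were not called, with 95% intervals of the log2 fold change from -0.15 to 0.61 and from -0.36 to 0.86. *FGFRL1*, an FGF receptor that lacks the kinase domain, rose from 196 ± 32.6 to 433 ± 20.4 (log2FC 1.15, limma adjusted p = 0.000212). Of the FGF receptor ligands, *FGF2* and *FGF9* were tested and neither was called (log2FC -0.28 and -0.38, limma adjusted p = 0.132 and 0.0993).

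*IGF1R* (ENSG00000140443, chromosome 15, 98648539 to 98964530) and *INSR* (ENSG00000171105, chromosome 19, 7112255 to 7294414), the insulin receptor, are close relatives that form hybrid receptors. *IGF1R* had normalized values of 3093, 3055 and 2481 in parental libraries 1, 2 and 3 and of 2467, 3046 and 2252 in resistant libraries 7, 8 and 9. The groups overlapped, with resistant library 8 among the high and parental library 3 among the low values. The log2 fold change was -0.16 (95% interval -0.42 to 0.11, limma adjusted p = 0.332). *INSR* was at 1155, 1073 and 1009 in the parental and at 1025, 1041 and 1036 in the resistant libraries, and its log2 fold change was -0.06 (95% interval -0.24 to 0.12, limma adjusted p = 0.60). The groups overlapped, and the resistant libraries lay within the range of the parental ones. The intervals allow a fall of *IGF1R* of up to 0.42 and of *INSR* of up to 0.24 on the log2 scale.

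The log2 ratio of *IGF1R* to *INSR* within a library was 1.41 ± 0.11 in parental and 1.31 ± 0.22 in resistant cells (exact two-sided permutation p = 0.60). Resistant library 8 had the highest ratio of all, 1.55, and without it the difference went from -0.10 to -0.22. The genes with the nearest profile to *IGF1R* were *ZNF800*, *DOCK3* and *AVL9*, at distances of 0.162, 0.181 and 0.182, none of which was called. The ligands *IGF1* and *INS* were listed at 0 in all 6 libraries, and *IGF2* was above the limit of 3 reads only in parental library 2, at 4.5. *IGF2R*, which binds IGF2 and carries it to lysosomes, and the binding proteins *IGFBP2*, *IGFBP4*, *IGFBP5* and *IGFBP6* were tested and none was called.

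The ErbB receptors pair with each other, and *ERBB3* has little kinase activity of its own and signals through partners such as *ERBB2*. *ERBB3* (ENSG00000065361, chromosome 12, 56076799 to 56103505) had normalized values of 1898, 2351 and 2084 in the parental and of 1826, 2014 and 1905 in the resistant libraries. The groups overlapped, and the log2 fold change was -0.14 (95% interval -0.33 to 0.06, limma adjusted p = 0.25). *ERBB2* (ENSG00000141736, chromosome 17, 39687914 to 39730426) was at 424, 284 and 289.5 in the parental and at 363, 339.5 and 429 in the resistant libraries, with parental library 1 above resistant libraries 7 and 8 and a log2FC of 0.20 (95% interval -0.18 to 0.58, limma adjusted p = 0.387). *ERBB4*, the remaining ErbB receptor, had a level of 55.8 ± 13.7 in parental and 80.5 ± 5.93 in resistant cells and was not called (limma adjusted p = 0.0973).

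*MET* (ENSG00000105976, chromosome 7, 116672196 to 116798377), the receptor of hepatocyte growth factor, had normalized values of 2144, 1817 and 1676 in the parental and of 1431, 1608 and 1682 in the resistant libraries. Resistant library 9 lay just above parental library 3, so the groups overlapped. The log2 fold change was -0.25 (95% interval -0.48 to -0.03), with an adjusted p of 0.0767 in limma, and it passed the threshold only without parental library 3 (log2 fold change -0.33, limma adjusted p = 0.0466). Its ligand *HGF* was listed at 0 in all libraries.

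*IGF1R*, *ERBB3* and *MET* lie in regions where the median gene was lower in resistant cells. The 50 tested genes around *ERBB3*, from 54.3 to 56.6 Mb of chromosome 12, had a median log2FC of -0.57, with 33 called lower and 0 higher. The 44 around *IGF1R*, from 90.7 to 102.0 Mb near the end of chromosome 15, had a median of -0.51, with 25 called lower and 0 higher. The 50 around *MET*, from 107.6 to 128.1 Mb of chromosome 7, had a median of -0.45, with 25 called lower and 1 higher. The log2FC values of the receptors themselves were -0.14, -0.16 and -0.25.

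When each library was centred on the median of 51 neighbouring genes, the direction of all 3 receptors turned. The centred log2 fold change was 0.39 for *ERBB3* (95% interval 0.17 to 0.61, limma adjusted p = 0.0134), past the threshold, where 14.3% of all genes were called higher. It was 0.28 for *IGF1R* (95% interval 0.03 to 0.53, adjusted p = 0.0879) and 0.20 for *MET* (95% interval 0.02 to 0.39, limma adjusted p = 0.0895), which were not called. The centred values of *KIT*, -0.57, and *FGFR1*, 0.68, stayed past the threshold. A centred value is a difference from the neighbouring genes, not a level: the normalized values of *ERBB3*, *IGF1R* and *MET* had no called change. DNA copy number was not analysed here.

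**Figure D3:**
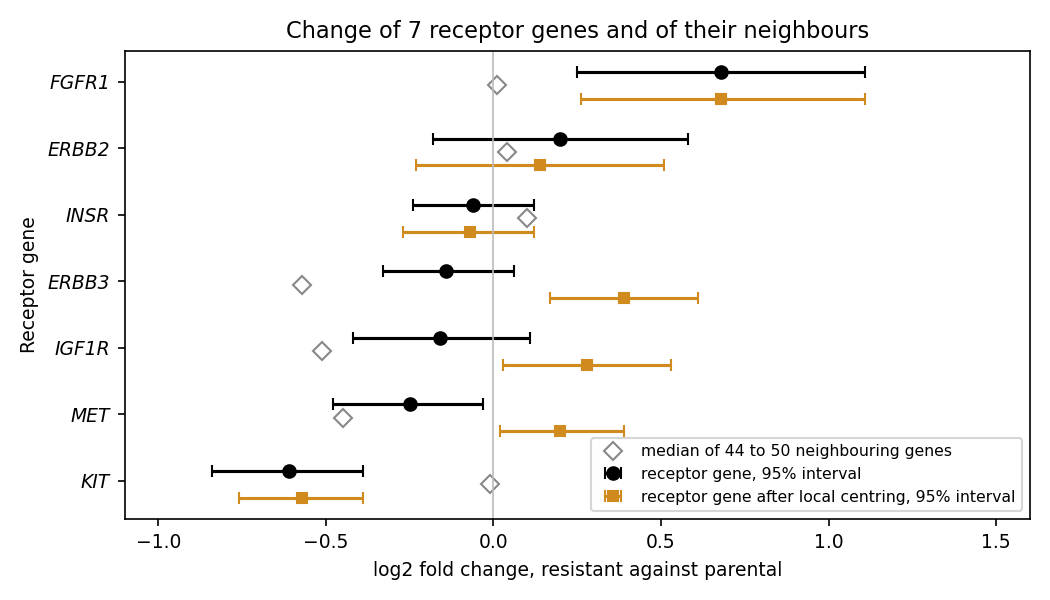
Log2 fold change (resistant against parental) of the 7 receptor genes tested, with 95% intervals (black circles), the median of the neighbouring genes tested on the same chromosome (grey diamonds) and the change of the receptor after local median centring (orange squares, 95% intervals). The neighbours of *ERBB3*, *IGF1R* and *MET* have medians of -0.57, -0.51 and -0.45, and those of *KIT* and *FGFR1* lie at -0.01 and 0.01.

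*EGFR*, *AXL* and *RET* were at or near the limit of detection. *EGFR* (ENSG00000146648, chromosome 7, 55019017 to 55211628), the receptor of epidermal growth factor, was listed at 0 in 5 libraries and at 0.38 in resistant library 7, below the value of 1 read. *AXL* (ENSG00000167601, chromosome 19, 41219223 to 41261766), a receptor of GAS6 that is often seen in drug-resistant carcinoma cells, was listed at 0 in all 6 libraries, which allows a value of up to 2.66 to 3.22. *RET* (ENSG00000165731, chromosome 10, 43077064 to 43130351), the receptor of the GDNF family, was at 2.35 in parental library 2 and at 0 in the other parental libraries, and at 1.27, 2.55 and 9.62 in resistant libraries 7, 8 and 9. Only the value of resistant library 9 was above the limit of 3 reads, and no fold is given for these genes.

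Promoter sequences are shown for *KIT*, of the 10 receptors the one with the highest level, and for *EGFR* and *AXL*, those with the lowest. The set of RefSeq promoters used here held 8 of the 10 receptors, all but *FGFR1* and *ERBB3*. The 250 bases before the start of *KIT* (chr4:54657707-54657956, plus strand), *EGFR* (chr7:55018767-55019016, plus strand) and *AXL* (chr19:41218973-41219222, plus strand) in GRCh38.p14 are printed 5′ to 3′ (the RefSeq start of *KIT* lies downstream of the gene start given above), with the GC box GGGCGG, on either strand, in capitals.
KIT: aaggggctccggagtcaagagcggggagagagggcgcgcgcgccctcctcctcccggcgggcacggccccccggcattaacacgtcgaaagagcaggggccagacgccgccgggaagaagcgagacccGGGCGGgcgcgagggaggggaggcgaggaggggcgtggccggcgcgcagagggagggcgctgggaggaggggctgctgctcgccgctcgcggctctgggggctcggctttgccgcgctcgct
EGFR: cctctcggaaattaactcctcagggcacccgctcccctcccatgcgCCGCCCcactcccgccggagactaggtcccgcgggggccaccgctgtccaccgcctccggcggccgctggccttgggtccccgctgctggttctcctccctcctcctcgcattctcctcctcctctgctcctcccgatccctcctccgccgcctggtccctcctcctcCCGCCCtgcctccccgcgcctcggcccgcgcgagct
AXL: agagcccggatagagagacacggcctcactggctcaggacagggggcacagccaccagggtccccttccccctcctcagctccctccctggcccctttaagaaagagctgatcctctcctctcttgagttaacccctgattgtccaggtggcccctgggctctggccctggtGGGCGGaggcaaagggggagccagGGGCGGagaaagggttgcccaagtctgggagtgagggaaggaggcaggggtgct

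These windows hold 34, 25 and 4 CpG pairs and 1, 2 and 2 GC boxes. Over 27305 promoters of the same length the median number of CpG pairs is 11 (quartiles 3 and 23) and 42.3% hold a GC box. *EGFR*, at or near 0, and *KIT*, the highest, both lie above the upper quartile, and *AXL* has the fewest CpG pairs of the 8 receptors. The other 5 receptors hold between 23 and 48 CpG pairs. A motif match is a description of the letters only.

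Ligand genes of the receptors were mostly low. Of 39 ligand genes, 13 were tested and 13 were listed at 0 in all libraries. Of the tested genes 2 were higher and 2 lower (30.8% called, against 37.7% of all genes tested), the median log2FC was -0.03, and the median over all genes tested was -0.001. *GAS6*, the ligand of *AXL*, *TYRO3* and *MERTK*, rose from 1586 ± 328 to 2357 ± 200.4 (log2FC 0.59, limma adjusted p = 0.00667). It lies near the end of chromosome 13, where 30 neighbouring genes had a median of 0.28, and after local centring it was not called (limma adjusted p = 0.157). *AXL* was at 0, but *TYRO3*, chosen after its values were seen, rose from 702 ± 106 to 969.8 ± 73.5 (log2FC 0.47, limma adjusted p = 0.0104), a call that was also lost with local centring (limma adjusted p = 0.132). *MERTK*, at 75.1 ± 10.4 in parental and 109 ± 22.0 in resistant cells, overlapped between groups and was not called (log2FC 0.52, limma adjusted p = 0.0898).

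*BTC*, betacellulin, a ligand of *EGFR* and *ERBB4*, rose from 8.45 ± 2.30 to 25.9 ± 7.76 (log2FC 1.5, limma adjusted p = 0.0151), and was not called without resistant library 8 (limma adjusted p = 0.0755). The parental mean of *BTC* lay under the mean that the filter requires, so it was tested through its resistant values. Its call was kept with no filter on low values. *TGFA*, another *EGFR* ligand, fell from 1007 ± 108 to 825 ± 40.4 (log2FC -0.28, limma adjusted p = 0.0442). *NRG1*, a ligand of *ERBB3*, fell from 96.3 ± 20.6 to 57.7 ± 12.1 (log2FC -0.73, limma adjusted p = 0.0414). The call of *TGFA* was lost in 9 and that of *NRG1* in 6 of the 14 alternatives. *HBEGF* and *NRG2*, the ErbB ligands with the highest values, had values of 2037 ± 400 and 1190 ± 166 in parental and 1944 ± 238 and 1156 ± 43.9 in resistant cells and were not called. *EGF* and *EREG* were listed at 0 in all libraries.

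Among 17 genes of coreceptors, sheddases and ligand-binding proteins, 10 were tested, 2 higher and 2 lower (40% called, close to the 37.7% of all genes tested). *GFRA3*, the coreceptor with which *RET* binds artemin, rose from 115 ± 12.3 to 457.7 ± 41.1 (log2FC 1.98, SE 0.14, limma adjusted p = 6.39e-06), and *RET* itself was near the limit of detection. *GFRA2*, the neurturin coreceptor, fell from 143 ± 33.3 to 86.8 ± 23.7 (log2FC -0.73, limma adjusted p = 0.0433), and lost its call in 6 of 14 alternatives. *ADAM17*, the protease that releases TGFA and other ErbB ligands, fell from 1543 ± 54.7 to 1259 ± 53.4 (log2FC -0.29, limma adjusted p = 0.0103).

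Of the 48 other human receptor tyrosine kinases, 33 were tested and 14 were higher and 5 lower in resistant cells. That is 57.6% called, against 37.7% of all genes tested, and 42.4% higher against 17.8%, with a median log2FC of 0.47. *EPHA7*, an ephrin receptor, rose from 609 ± 57.2 to 2877 ± 254 (log2FC 2.24, limma adjusted p = 2.93e-07). *NTRK2*, the receptor of the neurotrophin BDNF, rose from 83.0 ± 9.15 to 480 ± 67.4 (log2FC 2.51, limma adjusted p = 3.23e-06). *PDGFRA*, a receptor of platelet-derived growth factor and the neighbour of *KIT* on chromosome 4 (54229280 to 54298245), rose from 8.98 ± 3.46 to 69.8 ± 24.5 (log2FC 2.82, limma adjusted p = 0.000472), while *KIT* fell. The parental mean of *PDGFRA* lay under the mean that the filter requires. It was therefore tested through its resistant values and could hardly have been called lower. With no filter on low values 12 of the 48 receptors were called higher, *PDGFRA* among them, and 4 lower. *EPHA10*, an ephrin receptor without kinase activity, fell from 570 ± 90.1 to 103 ± 14.3 (log2FC -2.45, limma adjusted p = 3.94e-06).

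Each of those 4 calls held in the 14 alternatives, or in the 13 in which *PDGFRA* was tested. So did those of *FGFR3*, *ROR1*, *ROR2*, *EPHA2*, *EPHA8*, *EPHB3*, *LMTK3* and *STYK1*. Calls were lost in 7 alternatives for *FLT3* and *DDR1*, 8 for *FLT1*, 6 for *EPHA6* and 9 for *EPHB6*. *TYRO3* and *LMTK2* lost theirs only with local centring. That setting left 13 of the 33 called, 11 higher and 2 lower, where 30.2% of all genes were called. Of the 14 Eph receptors 11 were tested, with 4 higher and 3 lower (63.6% called, against 37.7% of all genes tested). Their median log2FC was -0.28, and *EPHA7* and *EPHA10* moved in opposite directions. *PDGFRA* is also a marker of fibroblasts. Of 5 fibroblast genes, *COL1A1* and *COL1A2* were higher in resistant cells, with log2FC values of 2.20 and 1.15, *COL3A1* had one of -0.73 and was not called, and *DCN* and *LUM* were not tested. The summed level of the 5 genes was between 142 and 191 in parental and between 375 and 599 in resistant libraries, and the defining marker *DCN* reached no more than 3.11 in any library, and *LUM* no more than 13.0. Of 3 endothelial markers, *VWF* was higher (log2FC 0.77), *CDH5* was at 0 and *PECAM1* reached no more than 0.198. The part of other cells in the changes of these receptors was not tested.

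**Figure D4:**
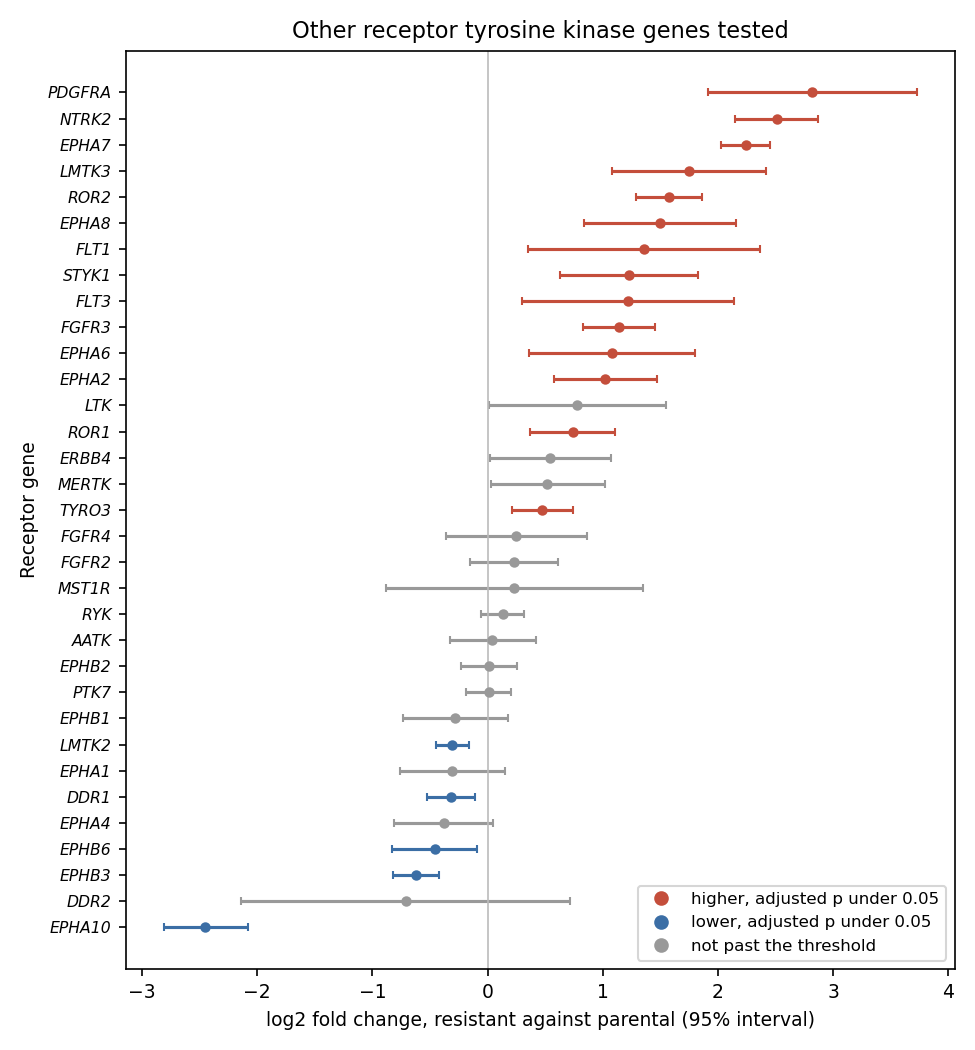
Log2 fold change (resistant against parental) with 95% intervals of the 33 other receptor tyrosine kinase genes tested, in order of size and coloured by the limma call (red higher, blue lower, grey not past the threshold). *PDGFRA*, *NTRK2* and *EPHA7* lie above 2 and *EPHA10* at -2.45.

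Adaptors dock on activated receptors. Of 34 genes, 29 were tested, 7 higher and 8 lower (51.7% called, against 37.7% of all genes tested), with a median log2FC of -0.03. *SHC2*, an adaptor of the Shc family, fell from 1629 ± 137 to 595 ± 116 (log2FC -1.47, limma adjusted p = 2.95e-05). *IRS4*, a docking protein of *INSR* and *IGF1R*, rose from 47.8 ± 7.54 to 113 ± 14.1, a log2FC of 1.23. *GAB1*, a docking protein of *MET* and *EGFR*, rose from 375 ± 114 to 758 ± 101 (log2FC 1.06, limma adjusted p = 0.00324). *FRS2*, the docking protein of the FGF receptors, fell from 881 ± 146 to 554 ± 20.2, a log2FC of -0.66. The neighbours of *FRS2* on chromosome 12 had a median of -0.51, and after local centring its call was lost (limma adjusted p = 0.486).

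Negative regulators degrade or block receptors and their signal. Of 28 genes 25 were tested, 7 higher and 3 lower (40% called, against 37.7% of all genes tested), with a median of 0.14. *RNF41*, a ubiquitin ligase of *ERBB3* whose gene lies in the same region of chromosome 12 (56202179 to 56221933), fell from 1713 ± 16.4 to 929 ± 82.5 (log2FC -0.89, limma adjusted p = 3.01e-05). Its neighbours had a median of -0.57, and after local centring the log2FC was -0.31 and the call was kept (limma adjusted p = 0.0147). *GRB10*, an inhibitor of *INSR* and *IGF1R*, fell from 857 ± 39.8 to 596 ± 44.7, a log2FC of -0.53. *NEDD4*, a ubiquitin ligase, and *SPRED1*, an inhibitor of RAS-MAPK signalling, rose with log2FC values of 0.77 and 0.65. The neighbours of *NEDD4* had a median of 0.49, and after local centring its call was lost (limma adjusted p = 0.177).

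All 37 genes of the RAS-MAPK and PI3K-AKT core were tested, 8 higher and 9 lower (45.9% called, against 37.7% of all genes tested), with a median log2FC of -0.02. *PIK3CD*, a catalytic subunit of PI3K, rose from 37.4 ± 28.2 to 223 ± 41.7 (log2FC 2.84, limma adjusted p = 0.00130). *PIK3R3*, a regulatory subunit of PI3K, fell from 4291 ± 315 to 2609 ± 115, a log2FC of -0.72. *NF1*, which switches RAS off, rose from 5424 ± 270.4 to 8698 ± 914 (log2FC 0.68, limma adjusted p = 0.000154). *RHEB*, which activates mTOR, fell with a log2FC of -0.68, among neighbours with a median of -0.52, and was not called after local centring (limma adjusted p = 0.146).

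Of 11 genes that MAPK signalling is known to switch on, 10 were tested, 2 higher and 1 lower (30% called, against 37.7% of all genes tested). *DUSP4*, a phosphatase that ends ERK signalling, rose from 45.7 ± 5.81 to 180 ± 25.6 (log2FC 1.95, limma adjusted p = 6.14e-05). *PHLDA1* rose from 68.0 ± 11.9 to 149.7 ± 20, a log2FC of 1.13. *DUSP6*, a related phosphatase of ERK, fell from 26.1 ± 8.78 to 9.97 ± 3.02 (log2FC -1.29, limma adjusted p = 0.0300), and lost its call in 6 of the 13 alternatives in which it was tested. The resistant mean of *DUSP6* lay under the mean that the filter requires, so it was tested through its parental values. It was not called with no filter on low values. Its neighbours had a median of -0.42, and local centring was among the alternatives in which the call was lost (limma adjusted p = 0.144). *ETV4*, *ETV5*, *EGR1*, *FOS* and *CCND1* were tested and not called, with log2FC values from -0.87 to 0.18.

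**Figure D5:**
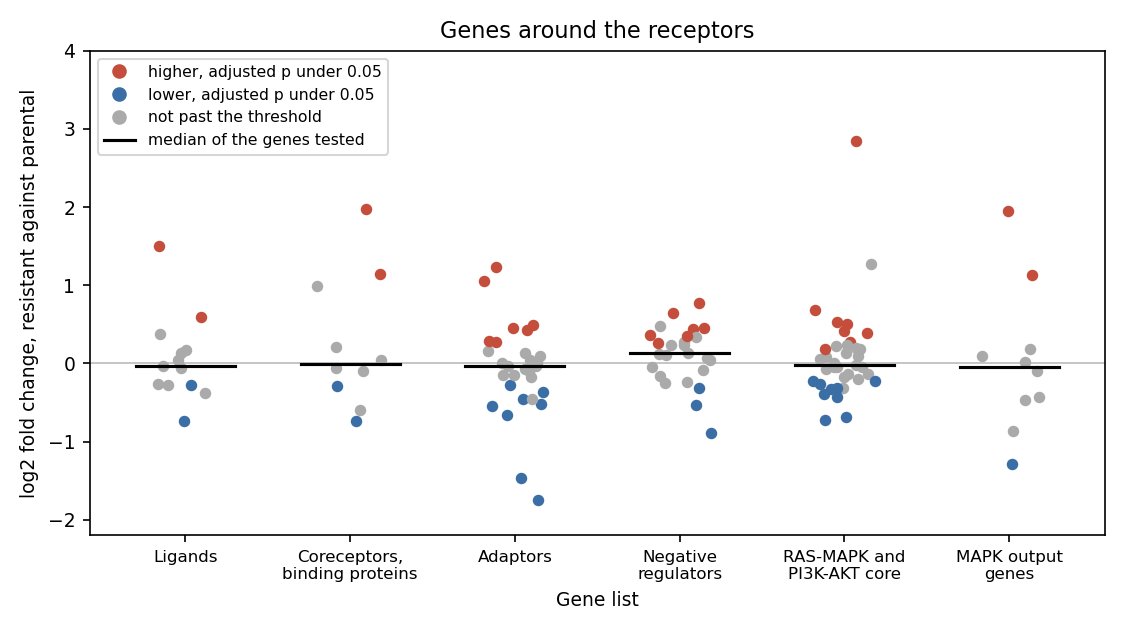
Log2 fold change (resistant against parental) of each gene tested in 6 lists around the receptors, coloured by the limma call, with the median of each list as a black line. The medians lie between -0.04 and 0.14, and single genes such as *PIK3CD* at 2.84 and *GFRA3* at 1.98 stand apart.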

How the data were processed

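RNA from 3 libraries each of parental and onvansertib-resistant H526 cells was analysed. Reads were trimmed by the authors with Trimmomatic 0.38 and aligned and quantified with RSEM 1.3.1 (GRCh38, Gencode v43). The deposited table holds DESeq2-normalized gene counts for each library, a normalized signal without a minimum. Between 33.8% and 50.6% of values under 10 were within 0.02 of a whole number of reads, too few to recover reads, so count tests were left out. The table held 62757 rows, of which 47 second copies of pseudoautosomal genes were left out. Symbols, GRCh38 positions and longest transcripts came from Gencode v44 for 62639 of the other 62710 rows.

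The test was limma 3.58.1 in R 4.3.3 on log2(value + 1) for genes with a mean of 10 or more. It compared resistant with parental cells without covariates, with the variance trended on intensity, and p was adjusted by Benjamini-Hochberg with a threshold of 0.05. A fold change on this scale understates the change of low genes. Shares and ratios were tested with an exact two-sided permutation test (scipy 1.17.1). The fit was tested on simulated libraries with known changes. Alternatives tried were other pseudocounts (0.1, 10), other filters (none, or a mean of 50), scaling by TMM or quantiles, limma with no trend, local median centring over 51 genes, and leaving out each library.

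The members and lists were chosen with earlier results of these data known. The genes named were the 10 receptors, the called ligands and coreceptors, up to 4 called genes of each other list with the largest change and no overlap between groups, and the 3 nearest profiles of *KIT* and *IGF1R*. Examples of marker genes, other list genes named without a call, *FGFR3* and *TYRO3* were added after their values were seen.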

Additional observations from a re-analysis of the deposited data

How the results depend on the processing

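Most results kept their direction and their side of the threshold. *KIT* was called lower in all 14 alternatives, with log2 fold changes between -0.70 and -0.48. With local median centring the log2 fold changes of *IGF1R*, *ERBB3* and *MET* turned to 0.28, 0.39 and 0.20, because the medians of their neighbours were subtracted. Without the intensity trend 1 of the 10 receptors was called, 2 ligands and 11 genes of the RAS-MAPK and PI3K-AKT core. Local centring left 10 of the core genes called, and no filter on low values left 2 ligands. With each library left out in turn, 1 to 2 receptors were called (1 without resistant library 8), 2 to 5 ligands (2 without resistant library 7, 8 or 9) and 11 to 15 core genes (11 without parental library 3). Over the same alternatives the difference in the log2 ratio of *IGF1R* to *INSR* lay between -0.22 and 0.00. The number of genes called over the whole table lay between 4784, without resistant library 8, and 6228, against 6161. No paired analysis was possible because the library numbers of the groups, 1 to 3 and 7 to 9, are not shared and the labels do not say which harvests match. The count tests planned as alternatives were not run, since whole reads could not be recovered. With 3 libraries per group, and with depth known only through the value of 1 read, changes of *RET*, *EGFR* and *AXL* were not detectable.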
